A study of Mus musculus with 12 samples.

Results

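The genes described here are 6 mouse genes of the response to osmotic stress: Nfat5, Slc5a3, Slc6a6, Slc6a12, Akr1b3 and Sgk1. They were chosen by name for their place in the pathway, with earlier results of these data known, among 38911 genes to which transcript counts were summed, and their levels were followed over 4 treatments and 3 cell passages of gastruloids, aggregates of embryonic stem cells that form the germ layers in culture. Gastruloids were grown from 200 cells of the mouse line E14TG2a, treated for the last day of culture and harvested at day 4. The stem cells of all groups had been kept in 2iLIF medium, which holds LIF, a Wnt agonist and an ERK antagonist. In the paper's protocol all gastruloids also received a Wnt agonist before the treatments. The groups were 0X glucose (0 mM), 1X glucose (21.25 mM), 3X glucose (63.75 mM) and 2-DG (2-deoxy-D-glucose, 5 mM, in 1X glucose). Each group held 3 polyA RNA libraries of pooled gastruloids, 1 each from cells at passages 13, 15 and 16. All libraries came from a single cell line, and the groups held no osmotic control such as mannitol. The 3X medium held 42.5 mM more glucose than the 1X medium, so that a response to glucose and a response to osmolarity cannot be told apart.

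Cells that lose water in a hypertonic medium first take up salts and then exchange them for small organic solutes that do not disturb proteins. The transcription factor NFAT5, also called TonEBP, drives this second step: it binds tonicity-responsive elements (TonE) and raises transcription of transporters for inositol (Slc5a3), taurine (Slc6a6) and betaine (Slc6a12) and of aldose reductase (Akr1b3), which turns glucose into sorbitol. The pathway is best known from the kidney medulla, and aldose reductase is also the entry enzyme of the polyol pathway that takes up excess glucose. Sgk1 encodes a kinase that acts on ion channels and transporters, and its transcript responds to cell volume and to glucocorticoids. 2-DG is taken up like glucose, blocks glycolysis and also enters protein glycosylation in the place of mannose.

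Promoter sequences were looked up because NFAT5 acts through TonE sites. RefSeq start sites on GRCm38.p6 gave 13 windows of 250 bases before a start for 4 of the 6 genes (Nfat5, Slc5a3, Slc6a12 and Sgk1), and Slc6a6 and Akr1b3 had no entry. The core TGGAAA was searched on both strands. It was found in 3 of the 13 windows, 1 of 5 for Slc6a12 and 2 of 6 for Sgk1. Of the 32851 windows of all genes, 18.6% held it. The longer TonE consensus, which contains the core, was found in 1 window, upstream of Slc6a12, and in 4.31% of all windows. The windows of 3 genes are printed here with the core in capitals: that of Slc6a12, as the sole window with the consensus, that of Sgk1 at the start of the transcript that carried most of its counts, and that shared by Slc5a3 and its neighbour Mrps6. The windows lie on the plus strand at chr6:121342324-121342573 (Slc6a12), chr10:21994416-21994665 (Sgk1) and chr16:92058072-92058269 (Slc5a3, ending before the GENCODE M21 start of Mrps6).
Slc6a12: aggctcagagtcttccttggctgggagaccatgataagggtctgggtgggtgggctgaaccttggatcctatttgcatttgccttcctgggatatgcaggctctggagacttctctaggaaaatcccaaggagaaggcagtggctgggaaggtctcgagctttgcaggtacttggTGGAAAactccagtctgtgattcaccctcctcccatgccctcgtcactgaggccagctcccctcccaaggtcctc
Sgk1: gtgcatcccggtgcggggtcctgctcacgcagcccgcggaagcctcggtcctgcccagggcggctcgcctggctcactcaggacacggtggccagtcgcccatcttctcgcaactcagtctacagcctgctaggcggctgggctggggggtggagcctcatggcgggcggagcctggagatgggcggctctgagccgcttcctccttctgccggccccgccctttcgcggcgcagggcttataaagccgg
Slc5a3: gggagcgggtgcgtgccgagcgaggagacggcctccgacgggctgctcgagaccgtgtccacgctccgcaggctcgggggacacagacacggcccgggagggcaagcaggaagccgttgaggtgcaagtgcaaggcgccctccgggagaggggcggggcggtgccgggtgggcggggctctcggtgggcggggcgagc
The core began 75 bases before the start that follows the printed Slc6a12 window. Neither the printed Sgk1 window nor the Slc5a3 window held it on either strand. The 2 Sgk1 windows with the core are not printed. A match is a description of the letters and was not tested as a binding site.

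Depth was 31902471 to 45956080 counts a library. Levels are given as CPM, counts scaled to a common library size with TMM factors, with the 3 values of a group in the order of passages 13, 15 and 16. Of the 6 genes, 5 had counts and passed the filter on low counts, as did 16966 genes in all. Comparisons between groups were fitted without a term for passage, and were repeated with passage as a block, because libraries of the same passage deviated together. As a check of the treatment, Txnip and Arrdc4, which glucose metabolites induce through MondoA and ChREBP, were followed. Txnip was at 33.8 to 47.9 CPM in 0X glucose, 86.0 to 97.7 in 1X glucose, 77.7 to 96.2 in 3X glucose and 154 to 185 in 2-DG. It fell by 1.17 on the log2 scale in 0X glucose (edgeR adjusted p = 0.014) and differed by -0.07 in 3X glucose. The fall in 0X glucose was of like size but not called with only the groups compared (-1.17, adjusted p = 0.325) or with the most abundant transcript (-1.19, adjusted p = 0.0601). Arrdc4 was at 34.0 to 44.1 CPM in 0X glucose and 60.4 to 80.0 in 1X glucose. The difference of -0.85 passed edgeR's test with the passage block (adjusted p = 0.00044) and not without it (adjusted p = 0.132). Without the block it was called by DESeq2 (adjusted p = 1.61e-07) and by edgeR with library totals (-0.88, adjusted p = 0.0424).

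Marker genes of the cell types expected in gastruloids were summed in each library. The 5 mesoderm markers (T, Tbx6, Msgn1, Meox1, Hes7) added up to 816 to 854 CPM in 1X glucose, 820.2 to 877 in 0X glucose and 828 to 886 in 3X glucose, and to 370.0 to 567 in 2-DG. The 4 neural markers (Sox1, Sox2, Pax6, Irx3) were at 57.7 to 149 in 1X glucose and 115 to 265 in 2-DG, and at 133 to 265 at passage 13, 62.4 to 133 at passage 15 and 50.8 to 115 at passage 16. The 5 pluripotency markers were at 34.8 to 48.5 in 1X glucose and 53.6 to 65.7 in 2-DG. The 4 endoderm markers (Sox17, Foxa2, Foxa1, Cer1) were at 3.21 to 8.72 in the 4 libraries of passage 13. They were at 63.6 to 197 in those of passage 15 and 20.5 to 70.5 in those of passage 16. Cer1 ran from 0.615 to 191 CPM over all libraries. Sox17, Foxa2 and Foxa1 reached at most 4.21, 2.47 and 4.20 CPM, so the high sums were mostly Cer1. The 4 trophoblast markers were at 3.87 to 6.15 in 2-DG and 1.67 to 2.84 in the other groups. The 6 fibroblast markers were at 9.75 to 11.2 at passage 13, 11.6 to 14.3 at passage 15 and 14.5 to 16.3 at passage 16. In such bulk libraries, fewer cells of a type and less RNA per cell cannot be told apart.

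Per kilobase of transcript, Akr1b3 was the highest of the 5 genes with counts and Slc5a3 the lowest. The sum of a gene was divided by 1 length, that of the GENCODE M21 transcript paired with 1 of its RefSeq transcripts. In 1X glucose the mean level per kilobase was 103 ± 2.91 CPM for Akr1b3, 27.7 ± 5.73 for Slc6a6, 16.8 ± 3.62 for Nfat5, 4.85 ± 1.11 for Sgk1 and 2.45 ± 0.504 for Slc5a3 (SD, n = 3). The RefSeq transcript used held a median of 2.34% of the Slc6a6 counts and 11.3% of the Nfat5 counts. The values of these genes and their places in the order therefore rest on the length chosen. The order was the same in the other 3 groups. With these lengths the ranges of the 5 genes in 1X glucose did not overlap. Slc6a12 had 0 counts from all 7 of its RefSeq transcripts in all 12 libraries, and 3 counts, the limit that a count of 0 allows, correspond to 0.0648 to 0.0947 CPM here.

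Without the passage block none of the genes passed the test in a comparison of glucose doses, and with it Slc6a6 alone did, between 3X and 0X glucose and along glucose. Between 3X and 1X glucose 0 of the 5 tested genes were called by edgeR's quasi-likelihood test (0% of all genes were called, and 0% with the passage block), 0 had an unadjusted p under 0.05, and DESeq2 and limma-voom called 0. Over all genes edgeR gave 178 with an unadjusted p under 0.05, DESeq2 called 2 and limma-voom 1. With the block, 2 of the 5 had an unadjusted p under 0.05, where 5.16% of all genes had one. In 0X against 1X glucose 0 of the 5 were called and 0 had an unadjusted p under 0.05 (0.0118% of all genes called, 0.0177% with the block), and again DESeq2 and limma-voom called 0. Between 3X and 0X glucose, the whole range of glucose, 0 were called without the block (0.0118% of all genes) and 1, Slc6a6, with it (0.802%). Along glucose as a number, 0 were called without the block (0% of all genes) and Slc6a6 with it (0.36%). Of these fits without the block, 1 gene (Slc6a6) had an unadjusted p under 0.05 in each of the last 2. DESeq2 and limma-voom called 0 of the members in both. With the block Slc6a6, Sgk1 and Slc5a3 had an unadjusted p under 0.05 in both, as had 16.2% and 14.9% of all genes. Between 3X and 0X glucose 734 of all genes (4.33%) had an unadjusted p under 0.05, DESeq2 called 32 and limma-voom 3. Along glucose 768 (4.53%) had an unadjusted p under 0.05, DESeq2 called 21 and limma-voom 0. The plot of levels by group shows the values behind these counts.

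**Figure D1:**
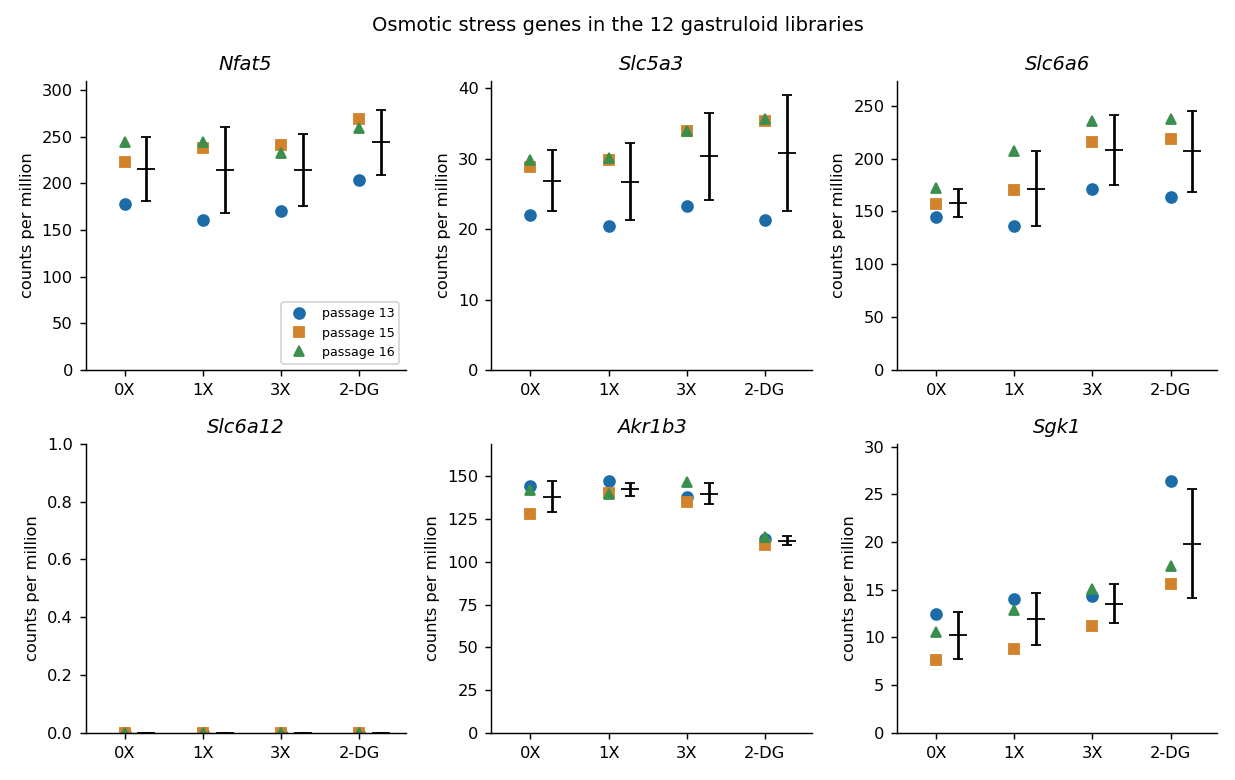
Levels of the 6 genes in CPM (y axis, linear from 0) in 0X, 1X and 3X glucose and 2-DG (x axis). Each point is 1 library, coloured by cell passage, and the bar beside each group is its mean ± SD (n = 3). Slc6a12 had 0 counts in all 12 libraries, Akr1b3 in 2-DG sat at 109.8 to 115 CPM below the other groups, and passage 13 was lowest in every group for Nfat5, Slc5a3 and Slc6a6.

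Nfat5 (chromosome 8, 107293435 to 107379517), the regulator, did not pass the test in any comparison of glucose doses. It had 178, 223 and 245 CPM in 0X glucose, 161, 238 and 244 in 1X glucose, 170.3, 241 and 232 in 3X glucose and 204, 269 and 259 in 2-DG. Passage 13 was the lowest library of each group, and the groups overlapped. In 3X against 1X glucose the log2 fold change was 0.00 with a 95% interval of -0.42 to 0.42, and with the block 0.01 (-0.10 to 0.12). Within passages 13, 15 and 16 this difference was 0.08, 0.02 and -0.07. In 0X against 1X glucose the log2 fold change was 0.01 (-0.41 to 0.43), and 0.02 (-0.09 to 0.13) with the block. The NFAT5 protein also acts through its phosphorylation and its entry into the nucleus, which RNA levels do not measure. Nfat5 counts, 5633 to 11290 a library, were split over 15 of its 16 RefSeq transcripts, and the share of NM_133957.3 ran from 2.77% to 72.5% between libraries, so values are for the sum.

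Slc5a3 (chromosome 16, 92058322 to 92087473), the sodium-coupled inositol transporter, had 21.9, 28.8 and 29.9 CPM in 0X glucose and 20.4, 29.7 and 30.1 in 1X glucose. In 3X glucose it had 23.2, 33.9 and 33.9 CPM, and in 2-DG 21.3, 35.4 and 35.6. The 3X value was above the 1X value in each of the 3 passages, by 0.19, 0.19 and 0.17 on the log2 scale, while the groups overlapped because of passage 13. A difference above 0 in all 3 passages was seen for 17.3% of all tested genes. The fitted log2 fold change was 0.18 (95% interval -0.33 to 0.70, edgeR adjusted p = 1) and, with the block, 0.18 (0.05 to 0.32), with an unadjusted p of 0.0135 and an adjusted p of 0.905. The difference between 0X and 1X glucose was 0.01 (-0.51 to 0.52). Between 3X and 0X glucose it was 0.18 (-0.34 to 0.69), and with the block 0.17 (0.03 to 0.30, edgeR adjusted p = 0.227). Its single RefSeq transcript had 695 to 1392 counts a library.

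Slc5a3 overlaps Mrps6, a gene for a mitochondrial ribosomal protein, on the same strand. In RefSeq Slc5a3 starts 14 bases before Mrps6, while the GENCODE M21 transcript of Mrps6 starts before Slc5a3 and spans it whole, so reads over the shared start could count for either gene. Mrps6 had 36.3, 33.8 and 35.6 CPM in 1X glucose and 34.6, 39.3 and 41.5 in 3X glucose. Its difference of 0.13 on the log2 scale did not pass the test (adjusted p = 1). Between passages 13 and 15, where Slc5a3 rose by 0.55, Mrps6 differed by 0.01 (adjusted p = 0.863).

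Slc6a6 (chromosome 6, 91684048 to 91759063), the taurine transporter, was the sole member to pass the test in a comparison of glucose doses, and it did so with the passage block alone. It had 145, 157 and 172 CPM in 0X glucose, 137, 171 and 208 in 1X glucose, 171, 216 and 236 in 3X glucose and 164, 219 and 238 in 2-DG. The 3X value was the higher in each passage, by 0.33, 0.34 and 0.18 on the log2 scale over 1X glucose and by 0.24, 0.46 and 0.45 over 0X glucose. The 3 groups nevertheless overlapped, save that 2 of the 3 libraries of 3X glucose lay above all of 0X and 1X glucose. The means were 158 ± 13.7, 172 ± 35.5 and 208 ± 33.0 CPM in 0X, 1X and 3X glucose (SD, n = 3). In 3X against 1X glucose the log2 fold change was 0.28 (95% interval -0.11 to 0.66, adjusted p = 1), and with the block 0.28 (0.15 to 0.41), with an unadjusted p of 0.000624 and an adjusted p of 0.905.

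In 3X against 0X glucose Slc6a6 differed by 0.39 (0.01 to 0.78, adjusted p = 1), and with the passage block it rose by 0.38 (0.25 to 0.52, edgeR adjusted p = 0.0255). Along glucose the slope was 0.06 per 10 mM with and without the block, with an adjusted p of 0.0271 with the block and 1 without it. When 1 library was left out of the blocked fit, the 3X against 0X call was kept only without the 0X library of passage 13, and was lost without any other library of both groups (adjusted p = 0.00739 to 0.168). The call of the slope was kept in 5 of 12 such fits. Slc6a6 reads were split over 5 of its 8 RefSeq transcripts, and the share of NM_009320.4 ran from 0.0846% to 74% between libraries, so values here are for the sum.

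Slc6a12 (chromosome 6, 121342574 to 121365773), the betaine transporter, had no count in any library, as given above. It could not be compared between groups, although 1 of its 5 windows before a start held the TonE consensus.

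Akr1b3 (chromosome 6, 34303930 to 34317489), aldose reductase, did not follow glucose. It had 145, 128 and 142 CPM in 0X glucose, 147, 140.1 and 140.0 in 1X glucose and 138, 135 and 147 in 3X glucose. These 9 libraries overlapped, and passages gave no common order. The difference between 3X and 1X glucose was -0.03 on the log2 scale (95% interval -0.14 to 0.09). With the block it was -0.03 (-0.11 to 0.06). In 0X against 1X glucose it was -0.04 (-0.16 to 0.07).

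Sgk1 (chromosome 10, 21882184 to 21999903), the kinase, was lowest in 0X glucose and highest in 2-DG. It had 12.5, 7.62 and 10.6 CPM in 0X glucose, 14.01, 8.84 and 12.9 in 1X glucose, 14.4, 11.2 and 15.04 in 3X glucose and 26.3, 15.6 and 17.5 in 2-DG. Within every passage the order was 0X, 1X, 3X glucose and then 2-DG, and the 3 glucose groups overlapped. An order of 0X below 1X below 3X in all 3 passages was seen for 3.18% of all tested genes, and among the members for Sgk1. Slc5a3 and Slc6a6 had it in 2 passages, Nfat5 in 1 and Akr1b3 in 0. None of the glucose comparisons of Sgk1 passed the test: the log2 fold change was 0.19 in 3X against 1X glucose (-0.36 to 0.73), -0.22 in 0X against 1X glucose (-0.77 to 0.33) and 0.41 in 3X against 0X glucose (-0.14 to 0.96), all with an adjusted p of 1. With the block the last was 0.43 (0.18 to 0.68, adjusted p = 0.111). The slope of Sgk1 was 0.06 per 10 mM (-0.02 to 0.14), and with the block 0.06 (0.03 to 0.10, edgeR adjusted p = 0.126). Of its counts 93.1% came from NM_011361.3, the transcript that starts after the Sgk1 window printed above, and the depth behind a value was 255 to 900 counts.

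**Figure D2:**
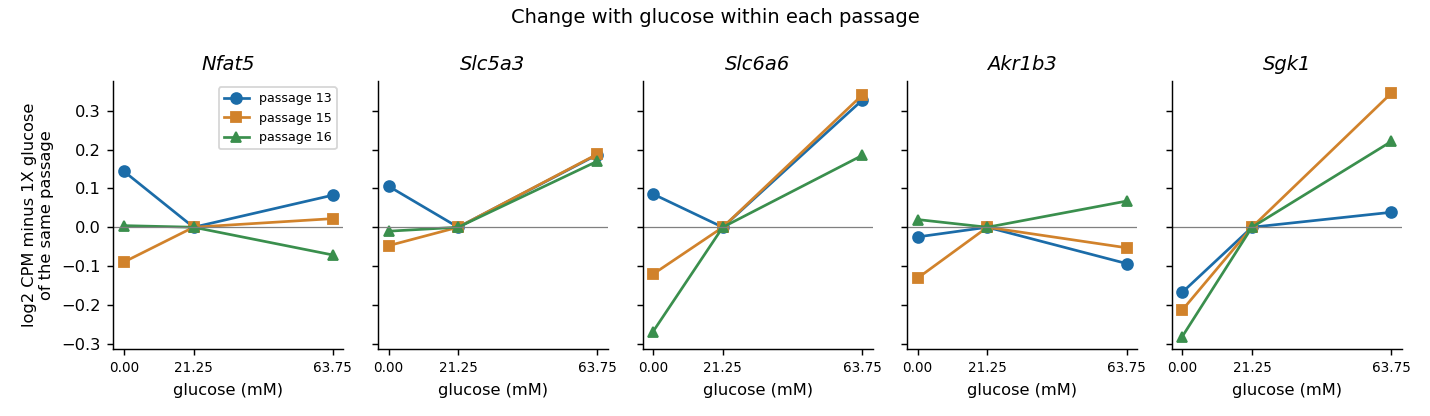
Difference in log2 CPM from the 1X glucose library of the same passage (y axis) against glucose in the medium in mM (x axis, 0, 21.25 and 63.75) for the 5 genes with counts, 1 line a passage. Slc6a6 at 63.75 mM lay 0.18 to 0.34 above 1X glucose and Slc5a3 0.17 to 0.19, Sgk1 climbed in all 3 passages, and Nfat5 and Akr1b3 lay on either side of 0.

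2-DG, in contrast, changed Akr1b3, and with the passage block it changed all 5 genes. Without the block 1 of the 5 was called between 2-DG and 1X glucose (17.6% of all genes called), and with it 5 of 5, 4 higher and 1 lower (41.3% of all genes called). The mesoderm, neural, pluripotency and trophoblast marker sums given above moved with the same libraries, and their part in these differences was not tested. Not every marker moved with its sum. Without the block T, Msgn1, Hes7 and Tbx6 differed by -1.57, -1.56, -0.74 and -0.64 in 2-DG against 1X glucose, and Meox1 by -0.0034. The pluripotency genes Nanog, Esrrb and Pou5f1 differed by 0.66, 0.59 and 0.55, Zfp42 by 0.04 and Klf4 by -0.10. Over all libraries the trophoblast gene Tfap2c reached 4.30 CPM, and Ascl2, Hand1 and Elf5 at most 1.41, 0.533 and 0.324. Akr1b3 had 113, 109.8 and 115 CPM in 2-DG, below all libraries of the other groups. The mean was 112 ± 2.44 CPM, against 142 ± 4.04 in 1X glucose (SD, n = 3). It fell by 0.34 on the log2 scale (SE 0.05, edgeR adjusted p = 0.00232) and was lower in all 3 passages, as were 30.8% of all tested genes. The call held in each of 6 fits that left out 1 library.

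Sgk1 in 2-DG had 26.3, 15.6 and 17.5 CPM and did not overlap with 1X glucose (8.84 to 14.01). The mean was 19.8 ± 5.73 CPM, against 11.9 ± 2.72 (SD, n = 3). The log2 fold change was 0.73 (95% interval 0.19 to 1.28) with an edgeR adjusted p of 0.0656, and with the block it rose by 0.73 (0.48 to 0.98, adjusted p = 0.000508). DESeq2 without the block called it as well (adjusted p = 0.0212). The difference was largest at passage 13, at 0.91, and 0.82 and 0.44 at passages 15 and 16.

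Nfat5, Slc5a3 and Slc6a6 were each higher in 2-DG than in 1X glucose in all 3 passages, as were 32.2% of all tested genes, and passed the test with the block alone. The differences of Nfat5 were 0.34, 0.18 and 0.09 at passages 13, 15 and 16. Nfat5 rose by 0.20 (0.09 to 0.31, adjusted p = 0.00813), against an adjusted p of 0.555 without the block. For Slc5a3 they were 0.06, 0.25 and 0.24, the smallest at passage 13. Slc5a3 rose by 0.19 (0.06 to 0.33, adjusted p = 0.0289), against 0.61 without the block, and its call was kept in 1 of 6 fits that left out a library, that without the 2-DG library of passage 13. For Slc6a6 they were 0.26, 0.36 and 0.20. Slc6a6 rose by 0.27 (0.14 to 0.40, adjusted p = 0.00403), against 0.33 without the block. The blocked calls of Nfat5, Slc6a6 and Sgk1 held in all 6 such fits.

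2-DG and 3X glucose could be compared directly, and this tests whether their differences from the shared 1X libraries were unequal. Between them 1 of the 5 genes was called without the block (15.2% of all genes) and 3 with it (38.8%). Akr1b3 fell by 0.31 (SE 0.05, edgeR adjusted p = 0.0039). Sgk1 differed by 0.55 (0.00 to 1.09, adjusted p = 0.165) and rose with the block by 0.53 (0.28 to 0.77, adjusted p = 0.004). Nfat5 differed by 0.19 (-0.23 to 0.60, adjusted p = 0.578) and rose with the block by 0.19 (0.08 to 0.30, adjusted p = 0.0115), a call kept in 4 of 6 fits without 1 library and lost without the 3X library of passage 13 or of passage 16, and its sign turned to -0.67 when the most abundant transcript stood for the gene. The transporters did not pass the test in either fit. Slc5a3 differed by 0.02 (-0.49 to 0.53) without the block and 0.01 (-0.13 to 0.15) with it. Slc6a6 differed by -0.01 (-0.39 to 0.38) without the block and -0.01 (-0.14 to 0.12) with it.

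**Figure D3:**
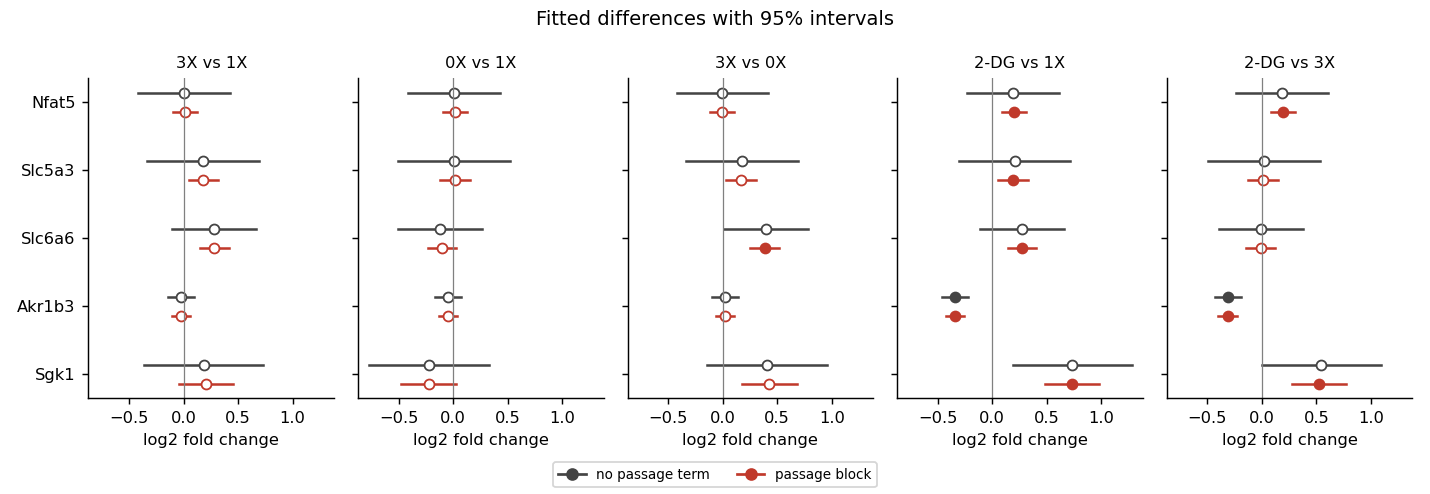
Fitted log2 fold changes (x axis) of the 5 genes with counts in 5 comparisons of groups, with 95% intervals, without a passage term (grey) and with passage as a block (red); filled points have an adjusted p under 0.05. Akr1b3 at -0.34 and -0.31 is filled in both fits of both 2-DG comparisons, and Slc6a6 in 3X against 0X glucose, at 0.38, in the blocked fit alone.

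More of these genes passed the test between passage 13 and the later passages than between glucose doses, and the same held over all genes. Between glucose doses the 2 edgeR fits above called at most 0.802% of all genes. A passage held 4 libraries and a glucose dose 3, so the counts come from unlike tests. Between passages 15 and 13, 4 of the 5 genes were called in a fit with group and passage (41.8% of all genes called), between 16 and 13, 3 (40.2%), and between 16 and 15, 1 (4.2%). Each passage held 1 library of every group, and these libraries stood as its replicates. The p-values between passages therefore do not measure the spread between separate cultures of a passage. The endoderm, neural and fibroblast marker sums given above moved with passage, the endoderm sum mostly through Cer1. Between passages 16 and 13 the fibroblast genes Col1a2, Col3a1 and Thy1 differed by 0.90, 0.90 and 0.36, and Col1a1 and Dcn by -0.09 and -0.29. Between passages 15 and 13 the mesoderm genes Meox1 and Tbx6 differed by 2.17 and 0.19, and T, Msgn1 and Hes7 by -0.76, -0.16 and -0.16. The part of these sums and genes was not tested. Which of culture age, day of the experiment or another difference went with passage cannot be told apart.

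Nfat5 was at 161 to 204 CPM at passage 13, 223 to 269 at passage 15 and 232 to 259 at passage 16, with no overlap between passage 13 and the others. It rose by 0.45 (SE 0.04) and 0.46 (SE 0.04) over passage 13 (edgeR adjusted p = 3.2e-05 and 2.53e-05). Slc5a3 was at 20.4 to 23.2 CPM at passage 13, 28.8 to 35.4 at passage 15 and 29.9 to 35.6 at passage 16, again with no overlap. It rose by 0.55 (SE 0.05) and 0.57 (SE 0.05). Slc6a6 was at 137 to 171 CPM, 157 to 219 and 172 to 238, and rose by 0.30 (SE 0.05) and 0.46 (SE 0.05), although passages 13 and 15 overlapped. Passages 15 and 16 differed by 0.01 for Nfat5, 0.02 for Slc5a3 and 0.17 for Slc6a6 (adjusted p = 0.894, 0.881 and 0.0953).

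Sgk1 went the other way. It was at 12.5 to 26.3 CPM at passage 13, 7.62 to 15.6 at passage 15 and 10.6 to 17.5 at passage 16, and these ranges overlapped. Within each group passage 15 was the lowest. It fell by 0.62 (SE 0.10) between passages 13 and 15 (edgeR adjusted p = 0.000601) and rose by 0.40 (SE 0.10) between 15 and 16 (adjusted p = 0.0486), and the last call was kept in 1 of 8 fits that left out a library, that without the 2-DG library of passage 16. Akr1b3 was at 113 to 147 CPM, 109.8 to 140.1 and 115 to 147. Its differences of -0.08 and 0.00 from passage 13 did not pass the test (adjusted p = 0.0757 and 0.964). The difference between passages 15 and 13 did pass at a mean of at least 100 counts (-0.09, adjusted p = 0.0492), with library totals (-0.12, adjusted p = 0.0139) and without the 3X library of passage 13 (adjusted p = 0.0402).

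The other genes of osmolyte handling were taken from 10 lists of 105 genes, of which 86 passed the filter. In 3X against 1X glucose 0 of the 86 were called, with or without the block. Without it 2 had an unadjusted p under 0.05, the phosphodiesterase gene Gpcpd1 (-0.27) and the vitamin transporter gene Slc5a6 (0.15). The median log2 fold change of the 86 was 0.04, against 0.00 over all genes tested. In 0X against 1X glucose 0 were called in both fits, and 0 without the block and 10 with it had an unadjusted p under 0.05, as had 9.38% of all genes with the block. Transporters and channels of cell volume control lay within -0.03 to 0.11 in 3X against 1X glucose (13 genes tested). In 3X against 0X glucose 2 of the 86 were called with the block and 0 without it. Lrrc8c, a subunit of the volume-regulated anion channel, rose by 0.53 (adjusted p = 0.043), and Aldh7a1, which makes betaine from its aldehyde, fell by 0.16 (adjusted p = 0.0473).

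In 2-DG against 1X glucose 14 of the 86 were called, 11 higher and 3 lower, and 41 with the block, 27 higher and 14 lower. That was 16.3% and 47.7% of the list, near the shares of all genes given above. Of the 4 tested genes of inositol synthesis and transport 1 was called: Isyna1, the synthase that makes inositol phosphate from glucose 6-phosphate, was at 68.0 to 84.7 CPM in 1X glucose and 147 to 162 in 2-DG, and rose by 0.98 (SE 0.11, edgeR adjusted p = 0.000446). In taurine and betaine metabolism 2 of 10 were called, the choline transporter Slc44a1 (0.69) and Csad, which makes hypotaurine (0.29). In the polyol pathway edgeR called 0 of 6 without the block, where DESeq2 and limma-voom called Khk (adjusted p = 0.0206 and 0.0463), and with it Sord, which turns sorbitol into fructose, rose by 0.63 and the fructose kinase Khk by 0.44. Akr1a1, an aldehyde reductase related to Akr1b3, differed from 3X glucose by -0.19 (adjusted p = 0.0365), and Khk by 0.48 (adjusted p = 0.0463).

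Of the 15 osmosensing kinases and partners of NFAT5, 3 were called in 2-DG against 1X glucose: the kinase Wnk4, which controls cation and chloride cotransporters (0.66), and the p38 pathway kinases Map2k6 (0.34) and Mapk14 (0.17). Of the cell volume genes the sodium pump subunit Atp1b1 (0.84) was called. Among 6 relatives of the transporters, the glycine transporter Slc6a9 (1.02) and the vitamin transporter Slc5a6 (0.45) were higher and the amino acid transporter Slc6a15 (-0.99) was lower. Nfatc2, of the calcineurin-regulated NFAT family, rose by 1.59 from low levels (1.06 to 1.73 CPM in 1X glucose and 3.22 to 4.39 in 2-DG). Fkbp5, a glucocorticoid-induced gene listed with Sgk1, fell by 0.40, and the chaperone gene Hsph1, of the other osmoprotective genes, by 0.28. The 3 genes of glycerophosphocholine turnover lay between -0.09 and -0.06, with 0 called. Against 3X glucose, Ccm2, a p38 scaffold, differed by -0.22, the cotransporter Slc12a4 by -0.30, Nfatc1 by -0.79 and Nfatc4 by -0.28, all past the test (adjusted p = 0.0403, 0.035, 0.04 and 0.0389), and the phosphodiesterase Gpcpd1 by 0.21 with the block alone (adjusted p = 0.0309). Many of these calls lay near the threshold. Gpcpd1 had a mean of 31.3 CPM in 1X glucose, 26.0 in 3X glucose and 30.0 in 2-DG. Against 1X glucose it differed by -0.06 in 2-DG and by -0.27 in 3X glucose, and neither passed the test. The unadjusted edgeR p of the 3X difference was 0.0044, and 0.00217 with the block.

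With no filter on low counts 10 listed genes were called in 2-DG against 1X glucose and 9 against 3X glucose, with only the groups compared 8 and 9, and with the most abundant transcript 5 and 4, against 14 and 17 above. In 2-DG against 1X glucose Map2k6, Mapk14, Csad and Atp1b1 lost their calls with no filter (adjusted p = 0.0542 to 0.0887) and with only the groups compared (0.0516 to 0.109), and Hsph1 with the latter (0.0596). Against 3X glucose Ccm2, Slc12a4, Nfatc1, Nfatc4, Akr1a1 and Khk lost theirs with no filter (0.0585 to 0.0727), and these save Nfatc4 with only the groups compared (0.0576 to 0.102). When the most abundant transcript stood for the gene, the signs of Csad and Wnk4 turned in 2-DG against 1X glucose (-0.30 and -0.83), and Slc5a6 was at 0.01 and Slc6a15 at -0.36 (adjusted p = 0.993 and 0.945).

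**Figure D4:**
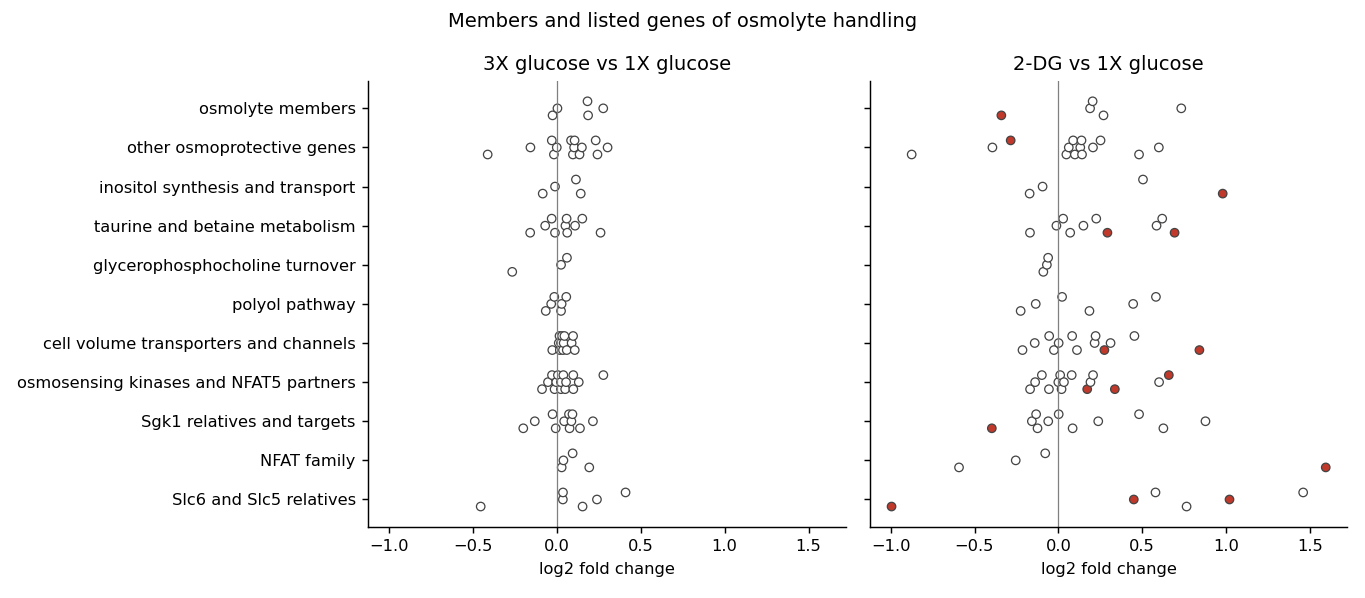
Log2 fold changes (x axis) without a passage term for the members and the 10 lists (rows) in 3X against 1X glucose and in 2-DG against 1X glucose. Each point is 1 gene that passed the filter, and filled points have an adjusted p under 0.05. In 3X glucose 0 points are filled and the listed genes lie between -0.45 and 0.41, and in 2-DG 14 listed genes and Akr1b3 are filled.

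Genes with the most similar pattern were sought by Pearson correlation over the 12 libraries after the mean of each passage was subtracted, among 11968 other genes with a mean of at least 100 counts. The points share libraries, so the values are descriptions and carry no test. For Sgk1 they were Tmem38a, Dcun1d2 and Peg10 (r = 0.99, 0.98 and 0.98), and for Akr1b3 Arap3, Gm6644 and Unc119 (0.99, 0.99 and 0.99). For Nfat5 they were Zgrf1, Tns1 and Uty (0.97, 0.96 and 0.96). For Slc6a6 they were Kpna6, Rbm38 and Isg20l2 (0.96, 0.95 and 0.94), and for Slc5a3 Rbm20, Gnai2 and Mcrip2 (0.96, 0.95 and 0.95). Among the members, the transporters Slc5a3 and Slc6a6 were the closest pair (r = 0.90), Nfat5 went with Sgk1 (0.81) and less with Slc5a3 (0.42) and Slc6a6 (0.48), and Akr1b3 was opposed to Nfat5 (-0.82) and Sgk1 (-0.80).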

How the data were processed

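PolyA RNA was sequenced from 12 libraries of day 4 gastruloids. The authors trimmed reads with Trim Galore, aligned them with HISAT2, removed duplicates with Picard and estimated expected counts per RefSeq transcript with StringTie on Galaxy, and deposited them as whole numbers. The labels name mm10; versions and the strand setting are not given in the sources used here. The authors' 3 tables of DESeq2 fold changes and p-values were not used.

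Transcripts were matched to symbols in the RefSeq table of GRCm38.p6 (all 120312 matched) and summed per gene, since StringTie can move reads between transcripts. Depth was 31902471 to 45956080 counts a library. Genes passing filterByExpr (minimum count 10) were fitted with edgeR 4.0.16 in R 4.3.3 (TMM, quasi-likelihood test, two-sided), with Benjamini-Hochberg adjustment over all 16966 genes and a threshold of 0.05. The passage comparisons had terms for group and passage, and the glucose slope a term for 2-DG. Intervals are 95%. CPM used TMM factors. Passage comes from the labels: the replicates are libraries of the same 3 passages in every group, and deviations from the group means correlated at 0.0963 to 0.623 between libraries of the same passage (18 pairs) and at -0.44 to 0.19 between others (36). The common dispersion was 0.0316, and 0.0063 with passage as a block. Each library pooled the gastruloids of a plate, which the authors count as a biological replicate. Without a passage term, p-values measure the spread between 3 passages of a single cell line. With passage in the fit, they measure the spread left after group and passage are fitted. Between passages, the libraries of a passage, 1 of each group, stood as its replicates, and the spread between separate cultures of a passage was not measured. The fits were tested on simulated counts.

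The members and gene lists were chosen with earlier results of these data known. Named genes beyond the members, Txnip, Arrdc4 and Mrps6 were up to 3 called genes a list, direction and comparison of groups, by fold change, or up to 2 called with the block where the fit without it called none; 1 gene that met this rule is not reported here. Alternatives were no filter, a mean of at least 100 counts, median-of-ratios factors, library totals, DESeq2 1.42.0, limma-voom (limma 3.58.1), passage as a block, only the groups compared, the most abundant transcript, log2 dose, the fit without 2-DG, and each library left out.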

Additional observations from a re-analysis of the deposited data

How the results depend on the processing

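Direction and side of the threshold changed under these settings. With no filter the log2 difference of Nfat5 was -0.0125 (3X against 1X glucose), -0.0143 (0X against 1X) and 0.00181 (3X against 0X), that of Slc5a3 -0.0146 (0X against 1X) and that of Akr1b3 -0.00445 (passage 16 against 13), and between passages 16 and 15 326 genes and 0 members were called. At a mean of at least 100 counts Akr1b3 was at -0.00357 (16 against 13). With library totals Nfat5 was at -0.00700, -0.0196 and 0.0126 in the same 3 comparisons and 0.00145 per 10 mM, Slc5a3 at -0.0202 (0X against 1X), Mrps6 at -0.0257 (15 against 13) and Akr1b3 at -0.0142 (16 against 13). DESeq2 called 2, 12, 32 and 21 genes (3X against 1X, 0X against 1X, 3X against 0X, slope), with 2 members in 2-DG against 1X and 2 between passages 16 and 15, and limma-voom 1 gene in 3X against 1X. The passage block called 7001 genes and 5 members (2-DG against 1X), 136 and 1 (3X against 0X), 6588 and 3 (2-DG against 3X) and 61 and 1 (slope). With only the groups compared 0, 1896 and 0 genes were called (0X against 1X, 2-DG against 1X, 3X against 0X).

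With the most abundant transcript 2, 653, 1, 544, 1902, 1958 and 8 genes were called (3X against 1X, 2-DG against 1X, 3X against 0X, 2-DG against 3X, passages 15 against 13, 16 against 13, 16 against 15), with 1, 1 and 0 members in the passage comparisons. In 2-DG against 1X Csad was then at -0.30 and Wnk4 at -0.83, and against 3X Nfat5 at -0.67, Slc6a6 at 0.59, Gpcpd1 at -0.095, Slc5a6 at -0.059, Slc6a15 at 0.54 and Wnk4 at -1.49. With log2 dose 1 gene was called along glucose, and without 2-DG the Nfat5 slope was 2.0e-05. The cause of these changes was not tested.

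Leaving out 1 library, with and without the block, gave 1 to 4 genes (0X against 1X), 1 to 87 (3X against 0X), 0 to 437 (slope), 1734 to 6382 (2-DG against 1X), 1440 to 5931 (2-DG against 3X) and 76 to 745 (passages 16 against 15), and 0 to 1, 0 to 1, 1 to 5, 1 to 3 and 0 to 1 members in the last 5. Signs turned in 0X against 1X for Nfat5 (-0.16 to 0.12), Slc5a3 (-0.16 to 0.13), Slc6a6 (-0.26 to 0.038), Akr1b3 (-0.084 to 0.0041) and Mrps6 (-0.044 to 0.022), in 3X against 0X for Nfat5 (-0.12 to 0.14) and Akr1b3 (-0.032 to 0.056), in the slope for Nfat5 (-0.015 to 0.023) and Akr1b3 (-0.0054 to 0.0082), in 3X against 1X for Nfat5 (-0.16 to 0.14) and Akr1b3 (-0.065 to 0.0033), and in 2-DG against 3X for Slc5a3 (-0.14 to 0.23) and Slc6a6 (-0.13 to 0.13). They turned between passages for Mrps6 (15 against 13, -0.049 to 0.056), Akr1b3 and Txnip (16 against 13, -0.029 to 0.026 and -0.15 to 0.014) and Nfat5 and Slc5a3 (16 against 15, -0.021 to 0.047 and -0.0084 to 0.057). Slc6a12 had 0 counts, and of the genes with counts Sgk1 had the fewest, 255 in its lowest library.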
